A study of Schizosaccharomyces pombe with 6 samples.

Results

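The prl RNAs of fission yeast (Schizosaccharomyces pombe) are transcripts that were found as polyadenylated RNAs without a long open reading frame, and their name records that. The members described here are the 52 features, of 6988 in the count table, that the authors' deposited table names prl followed by a number. Of these, 51 carry a noncoding RNA identifier. The remaining one, prl65 (SPAC19A8.16), is a protein-coding feature that the same table describes as a tudor domain superfamily protein, so it goes against the group's name. The measurements are stranded poly(A)+ RNA-seq counts from 2 strains grown in YES, a rich medium, to log phase. The control strain AGP257 has the genotype h- pla1-WT::kanMX, and the mutant strain AGP259 has h- pla1-Y86D::kanMX, a change in the active site of the poly(A) polymerase. Each allele is linked to the same kanMX drug marker, and both strains are of the h- mating type. Each strain is 1 genotype with 3 libraries, which the series calls replicate experiments. No label ties them to separate cultures, and the p-values below rest on library-to-library spread that may be technical.

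Pla1 is the polymerase that adds poly(A) tails in the nucleus. In fission yeast the tail is also part of how unwanted nuclear RNAs are removed: the poly(A)-binding protein Pab2 and the MTREC complex hand tailed noncoding and meiotic RNAs to the nuclear exosome, an RNA-degrading complex. Mmi1 recruits this machinery to RNAs that hold copies of a short motif, UNAAAC. Most prl RNAs have no described function. Many of them lie opposite a protein-coding gene and are thus antisense to it.

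Totals ranged from 17594840 to 21849845 counts per library, and the strains separated along a first principal component with 91.0% of the variance. The pla1 mRNA itself had a log2 fold change of 0.37 (pla1-Y86D over pla1-WT), which is no check of a point mutation. Of the meiotic marker genes, 8 of 8 were higher in the mutant, with a summed level of 142 to 144 CPM (counts scaled to a common library total after TMM normalization) in pla1-WT and of 680 to 710 CPM in pla1-Y86D; none was at 0. Of the markers of h- cells, 3 were higher and 2 lower of 7 tested, and mat1-Mc was at 0 in all 6 libraries. Their summed levels were 141 to 148 CPM in pla1-WT and 143 to 148 CPM in pla1-Y86D. Of the markers of h+ cells, 3 were higher and 1 lower of 4, at summed levels of 435 to 455 CPM and of 463 to 479 CPM, of which sxa1 gave means of 401.9 and 421.5 CPM. Of all features tested, 40.1% were higher and 41.1% lower. Whether any cells were in meiosis was not tested, nor was the part of these differences in the prl values.

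The sequences below are those of the members on which the results turn, from the RefSeq annotation of assembly ASM294v3. They are the clearest increase (prl14), the largest fitted increase (prl61), 3 further increases of over 2-fold (prl66, prl4 and prl40), and the reading frame inside the most abundant member (prl53). The deposited counts were made on another build, ASM294v2, so no coordinates are given. Of prl14 (chromosome I, plus strand, 762 bases), bases 359 to 658 are shown, and the capitals mark the 30 of these that lie within ntr1 on the other strand. In prl4 (chromosome II, minus strand, 253 bases) they mark the 20 bases within exons of mad2 on the other strand. Of prl61 (chromosome I, plus strand, 444 bases) bases 24 to 323 and of prl66 (chromosome II, plus strand, 437 bases) bases 138 to 437 are shown, where capitals mark the motif TNAAAC, read on the transcript strand only. prl40 (chromosome III, plus strand, 191 bases) holds none of these. For prl53 (chromosome I, minus strand) bases 88 to 333 of 1852 are shown, with the start and stop codons in capitals.
prl14: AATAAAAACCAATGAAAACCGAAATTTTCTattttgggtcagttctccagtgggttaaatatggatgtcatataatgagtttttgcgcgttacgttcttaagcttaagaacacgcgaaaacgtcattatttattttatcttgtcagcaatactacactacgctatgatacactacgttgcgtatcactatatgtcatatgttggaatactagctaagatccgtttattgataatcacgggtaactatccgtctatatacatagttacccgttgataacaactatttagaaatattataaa
prl61: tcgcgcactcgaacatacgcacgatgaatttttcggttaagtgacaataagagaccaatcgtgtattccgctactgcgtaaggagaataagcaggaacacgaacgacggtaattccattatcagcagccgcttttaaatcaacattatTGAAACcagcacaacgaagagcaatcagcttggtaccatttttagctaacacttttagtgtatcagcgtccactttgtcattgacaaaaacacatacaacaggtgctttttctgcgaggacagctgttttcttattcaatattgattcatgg
prl66: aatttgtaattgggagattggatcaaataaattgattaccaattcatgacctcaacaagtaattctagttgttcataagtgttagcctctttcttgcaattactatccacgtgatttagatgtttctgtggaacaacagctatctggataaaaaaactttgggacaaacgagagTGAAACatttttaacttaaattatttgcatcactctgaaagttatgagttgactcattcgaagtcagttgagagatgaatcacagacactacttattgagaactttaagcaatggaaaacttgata
prl4: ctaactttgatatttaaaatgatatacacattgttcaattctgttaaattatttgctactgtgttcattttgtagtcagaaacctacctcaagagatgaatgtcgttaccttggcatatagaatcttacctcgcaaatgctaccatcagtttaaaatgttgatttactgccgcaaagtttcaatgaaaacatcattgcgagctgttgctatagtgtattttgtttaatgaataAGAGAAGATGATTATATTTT
prl40: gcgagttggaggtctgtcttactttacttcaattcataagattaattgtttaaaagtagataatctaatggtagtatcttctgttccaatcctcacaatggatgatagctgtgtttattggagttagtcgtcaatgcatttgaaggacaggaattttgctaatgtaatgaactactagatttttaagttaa
prl53: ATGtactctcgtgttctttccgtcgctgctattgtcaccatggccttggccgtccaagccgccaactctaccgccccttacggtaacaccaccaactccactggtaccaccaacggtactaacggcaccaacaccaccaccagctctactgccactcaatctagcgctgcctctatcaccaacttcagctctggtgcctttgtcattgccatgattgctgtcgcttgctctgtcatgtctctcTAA

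Reads were counted on 33 of the 52 members, and 19 (36.5%) were listed at 0 in all 6 libraries. Among the other 1476 ncRNAs of the table, 133 (9.01%) were at 0 throughout. Zeros were most frequent among members that share their strand with another counted feature. Of 9 members overlapped on the same strand by a counted feature, 8 were at 0, against 3 of 22 overlapped only on the other strand and 3 of 14 overlapped by none. A further 7 members had identifiers that are not features of the reference, and 5 of these were at 0. Those 5 (prl6, prl8, prl9, prl20 and prl38) are listed in the reference as synonyms of another ncRNA that has its own row in the count table. prl59 is also listed as a synonym, of SPNCRNA.817, and had 290 to 376 counts per library. A 0 in such a member is no measure of whether its RNA was present, and how the counting treated shared reads was not tested.

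**Figure D1:**
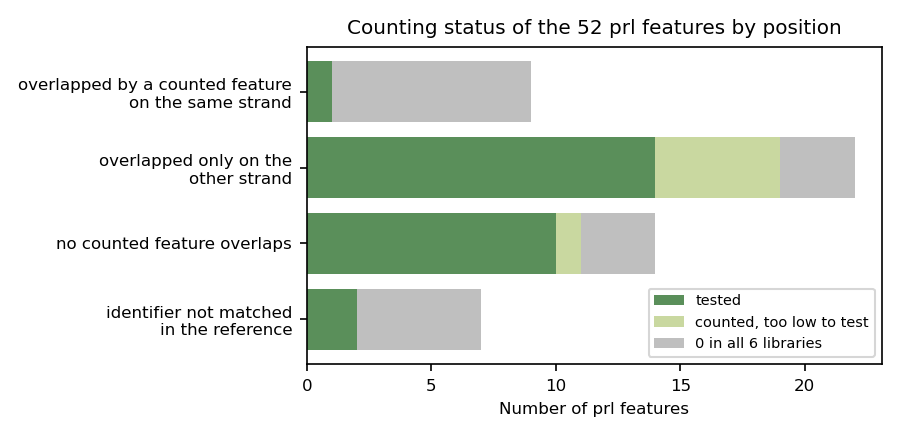
Number of prl features (horizontal axis) by their overlap with other counted features in the reference annotation, split into members tested, counted but too low to test, and at 0 in all 6 libraries. Of the 9 members overlapped on the same strand, 8 were at 0 and 1, prl53, was tested.

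Each of the 8 same-strand members at 0 overlaps at least 1 feature with reads. prl2 lies almost wholly (99.3% of its length) within ubp16-antisense-1, which had 23, 16 and 39 counts in pla1-WT and 87, 99 and 125 in pla1-Y86D (log2 fold change 2.15). prl26 lies wholly within SPNCRNA.1553, whose log2 fold change was 1.32, and prl23 within otg2-antisense-1 at 0.37. prl52 lies wholly within SPAC22E12.02, a splicing factor gene with 955 to 1291 counts per library. prl62 lies within msi2, a gene of the mRNA cleavage factor complex, with 1615 to 2245 counts. prl28 overlaps SPAC29B12.14c, a purine transporter gene, with 1011 to 1165 counts per library. prl32 overlaps SPCC417.16, a gene for a mitochondrial protein, with 2718 to 3531 counts, and SPCC417.15, at 0 throughout. prl3 overlaps SPNCRNA.626, with 145 to 406 counts, over 29 bases and SPAC806.11, with at most 1 count, over 219 bases. SPNCRNA.1649, of which prl20 is now a synonym, had 16, 11 and 12 counts in pla1-WT and 60, 91 and 115 in pla1-Y86D, a log2 fold change of 2.91. The other members at 0 were prl11, prl19, prl35, prl37, prl45 and prl57. Overlap on the other strand went with fewer zeros than overlap on the same strand. Of 8 members that lie wholly within a counted feature on the other strand 5 had reads, and the rest were at 0. Among the 5 was prl34 with 202 to 293 counts per library.

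Of the 33 members with reads, 6 were too low for the test. They all rest on under 10 counts in at least 2 of the control libraries. prl5 had 3, 0 and 1 counts in pla1-WT replicates 1, 2 and 3 and 2, 7 and 12 in pla1-Y86D. prl16 had 1, 2 and 1 counts against 1, 12 and 5. prl12 was at 0 in all 3 control libraries and had 0, 3 and 4 counts in the mutant. The strains overlapped in each of these 3. prl25 had 12, 4 and 6 counts against 9, 6 and 9, and prl39 had 3, 4 and 1 against 4, 1 and 6. prl27 had 2, 0 and 1 counts in pla1-WT and 0 in every pla1-Y86D library. The authors' deposited table gives prl5 an adjusted p of 0.0266 and prl16 one of 0.0461, both as higher. The filter on low counts left both out of the main test here; without it, edgeR called them higher too, with adjusted p-values of 0.0047 and 0.0133.

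Among the 27 members tested, 19 were higher in pla1-Y86D, 3 were lower and 5 were not called by edgeR's quasi-likelihood test at an adjusted p under 0.05. The background is high: of 6267 features tested, 40.1% were called higher and 41.1% lower. Among the 1161 tested ncRNAs outside the group, 57.2% were called higher and 19.3% lower. The count of increases of at least 2-fold was 9 of 27, where the background was 9.02% of all features and 26.1% of the other ncRNAs. The members' share called higher was thus above that of all features and nearer to that of other ncRNAs, and no test of that difference was made. The median log2 fold change was 0.67 over the tested members, 0.41 over the other ncRNAs and -0.0047 over all features tested. Without prl65 the ncRNA members included 18 higher and 3 lower among 26 (median 0.65). None of the 27 fell by 2-fold or more, as 2.38% of all features did. The strains did not overlap in CPM in 22 of the 27, against 81.9% of all features tested. A filter on low counts left these 27, so the counts do not speak for all 52 members. In such bulk libraries fewer cells with an RNA and less RNA per cell cannot be told apart. Because poly(A)+ libraries capture tailed RNA, a change in RNA amount and one in tailing or capture cannot be told apart either. Words such as higher or rose refer to captured RNA throughout.

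**Figure D2:**
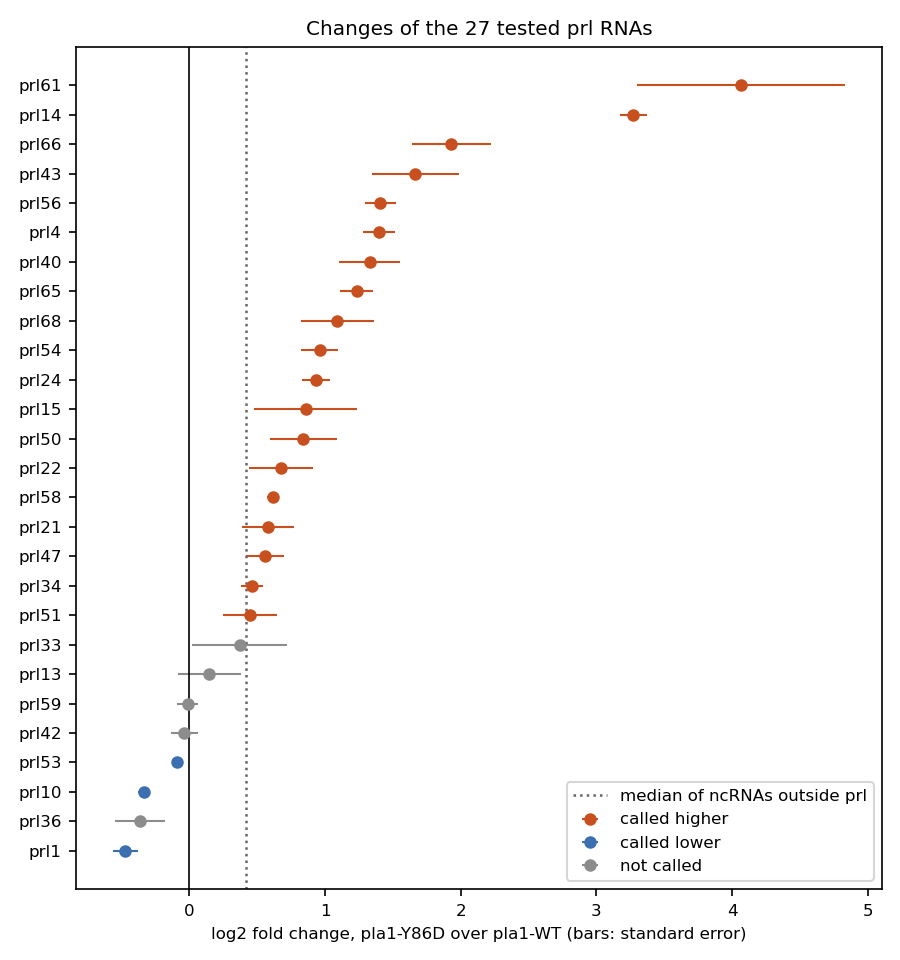
log2 fold change of each of the 27 tested prl RNAs (points) with its standard error (bars), coloured by call, with 0 as a solid line and the median of the other ncRNAs as a dotted line. The 19 members called higher range from 0.45 (prl51) to 4.07 (prl61), and the 3 called lower from -0.09 (prl53) to -0.47 (prl1).

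Few of the tested members rest on under 10 control counts, but the largest change does. In 5 of the 27 at least 1 control library had under 10 counts, and 4 of these 5 were called. prl61 had 20, 1 and 3 counts in pla1-WT and prl15 had 7, 13 and 7, so both have a control mean under 10. prl43 had 6, 14 and 10 counts, prl66 had 13, 12 and 7, and prl33, which was not called, had 8, 16 and 14. The remaining 22 had at least 10 counts in every control library.

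The clearest increase was that of prl14 (SPNCRNA.14), which is antisense to the start of ntr1, a splicing factor gene. Its level was 2.76, 2.69 and 2.48 CPM in pla1-WT replicates 1 to 3 and 25.7, 24.1 and 26.7 CPM in pla1-Y86D replicates 1 to 3. The strains were far apart and the libraries of each lay close together. That is a log2 fold change of 3.27 (SE 0.0995, adjusted p = 2.4e-25 by edgeR), from means of 2.64 ± 0.147 to 25.5 ± 1.32 CPM (SD, n = 3 per strain). The ntr1 mRNA on the other strand moved far less, from 121.6 ± 0.101 to 157.9 ± 3.70 CPM (log2 fold change 0.38). The gene on its other side, the nucleoporin gene alm1, had a log2 fold change of -0.30. Of the 762 bases of prl14, 50.9% lie within ntr1 exons, and its whole sequence holds no TNAAAC.

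The largest fitted change was that of prl61 (SPNCRNA.61), and it is also the least precise. Its level was 1.02, 0.0455 and 0.138 CPM in pla1-WT and 4.81, 5.20 and 9.03 CPM in pla1-Y86D. The lowest mutant library was above the highest control library, yet the control libraries themselves spread widely. The fit gave a log2 fold change of 4.07 (SE 0.769, adjusted p = 0.00717 by edgeR). Leaving out control replicate 1 gave 6.05, and leaving out control replicate 2 gave 3.52. prl61 is antisense over 92.1% of its length to SPAC186.07c, a hydroxyacid dehydrogenase gene. That gene had 5, 2 and 4 counts in pla1-WT and 31, 38 and 63 in pla1-Y86D, a log2 fold change of 3.69 (SE 0.366). Sense and antisense RNA thus both rose here. The same control library stood apart at the nearest feature on that strand, SPAC186.06, 3173 bases away, with 53, 5 and 5 counts in pla1-WT and 24, 28 and 27 in pla1-Y86D. That gene was not called (log2 fold change 0.48, edgeR adjusted p = 0.692). On the other side SPAC186.08c, an L-lactate dehydrogenase gene, had 8, 1 and 2 counts in pla1-WT. The part of pla1-WT replicate 1 in the difference was not tested beyond leaving it out.

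Next came prl66, prl43, prl56 and prl4, each of which overlaps a counted feature on the other strand. prl66 was at 0.664, 0.546 and 0.321 CPM in pla1-WT and 2.12, 2.21 and 1.56 CPM in pla1-Y86D (log2 fold change 1.93, SE 0.294, edgeR adjusted p = 3.45e-07). It lies wholly within SPNCRNA.1369 on the other strand, whose log2 fold change was -0.06 and which was not called. prl43 was at 0.307, 0.637 and 0.458 CPM against 1.26, 1.33 and 1.89 CPM (log2 fold change 1.66, SE 0.319, edgeR adjusted p = 1.66e-05). It is antisense over 85.7% of its length to drc1, a gene of DNA replication initiation, which was at 0.12. In each of these members the strains did not overlap.

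prl56 was at 3.42, 4.01 and 3.94 CPM in pla1-WT and 10.5, 10.12 and 9.69 CPM in pla1-Y86D (log2 fold change 1.41, SE 0.115, edgeR adjusted p = 2.99e-13). It has 2 exons and covers most of SPACUNK4.13c, a gene for a mitochondrial NTPase of the Obg family, whose log2 fold change was 0.27. prl4 was at 3.88, 3.23 and 4.08 CPM against 9.39, 9.68 and 10.4 CPM (log2 fold change 1.40, SE 0.119, edgeR adjusted p = 7.99e-13). Only the last 20 bases of prl4 overlap a counted gene, mad2 of the spindle checkpoint, and mad2 was not called (0.06). The strains were again separate in both.

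The other increases of at least 2-fold belong to members that no counted feature overlaps. prl40 lies 345 bases from SPCC1827.07c, an SPX/EXS domain gene, and 397 bases from the protein kinase gene ppk38. It was at 0.971, 1.18 and 0.871 CPM in pla1-WT and 2.69, 2.88 and 2.13 CPM in pla1-Y86D (log2 fold change 1.33, SE 0.227, edgeR adjusted p = 2.63e-06). Its neighbours were at 0.09, not called, and -0.20. prl68, between the securin gene cut2 and the mitochondrial import gene tim44, was at 0.664, 0.683 and 0.917 CPM against 1.32, 1.71 and 1.80 CPM (log2 fold change 1.09, SE 0.27, edgeR adjusted p = 0.000454). Both neighbours fell, cut2 by 0.59 and tim44 by 0.51 on the log2 scale. The coding member prl65 was at 3.68, 5.01 and 5.87 CPM against 11.2, 10.8 and 12.4 CPM (log2 fold change 1.23, SE 0.122, edgeR adjusted p = 1.51e-10). Its neighbour upf2, of nonsense-mediated mRNA decay, had a log2 fold change of -0.41, and SPNCRNA.286 on its other side had at most 2 counts.

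**Figure D3:**
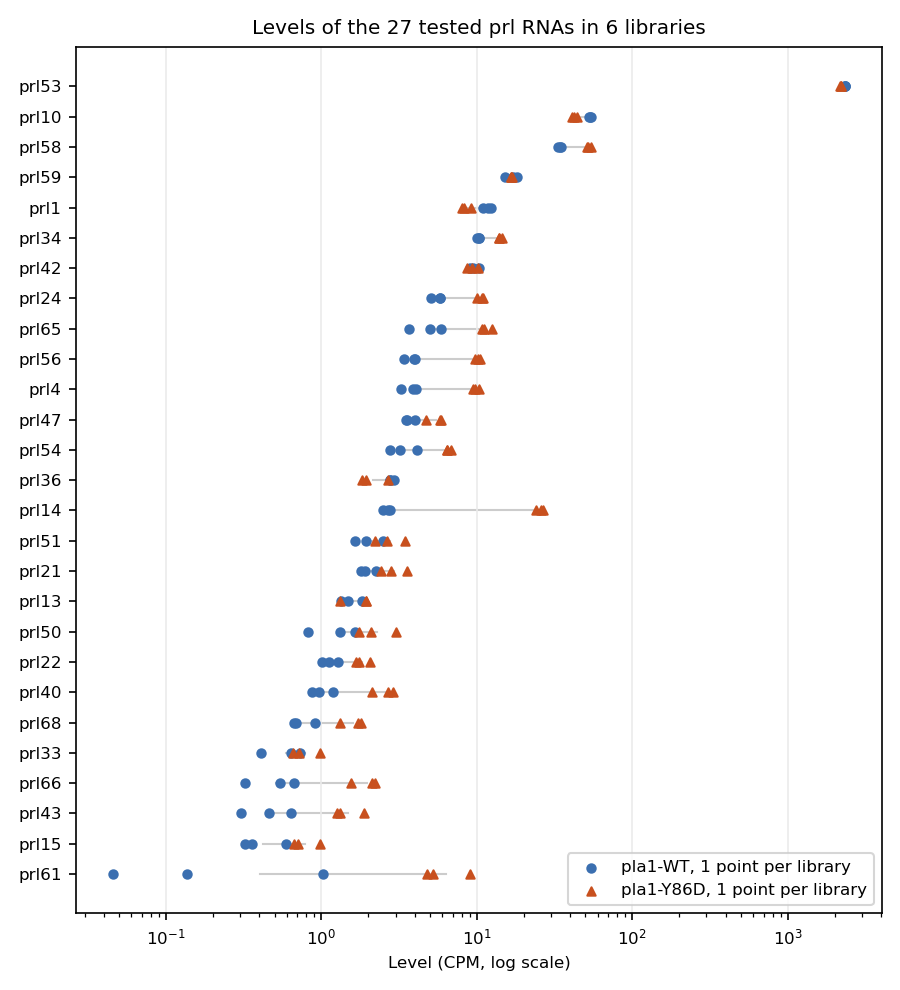
Level in CPM on a log axis of the 27 tested prl RNAs, with 1 point per library (circles for pla1-WT, triangles for pla1-Y86D) and a grey line between the strain means. prl53 stands far above the rest, at 2156 to 2348 CPM, and prl14 and prl61 show the widest gaps between strains.

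A further 10 members were called higher by less than 2-fold. Those with the smallest relative errors were prl58 (log2 fold change 0.62, SE 0.0448), prl24 (0.93, SE 0.105), prl54 (0.96, SE 0.139) and prl34 (0.46, SE 0.0839). prl58 directly adjoins SPAC20G8.02, a phospholipase gene that was not called, and lies 76 bases from itr2, a myo-inositol transporter gene that rose by 0.48 on the log2 scale. prl24 lies 108 bases from ivn1 on one side and 108 bases from wwm1 on the other, and these had log2 fold changes of 0.55 and 0.21. The remaining increases were prl50 (0.84), prl22 (0.67), prl21 (0.58), prl47 (0.56), prl15 (0.86) and prl51 (0.45). prl50 lies 140 bases from meu13, a gene of meiotic recombination on the other strand that went from 71, 111 and 79 counts to 658, 665 and 865 (log2 fold change 3.22). In prl51 the strains overlapped, at 1.94, 1.64 and 2.48 CPM against 3.44, 2.21 and 2.65 CPM, and its edgeR adjusted p of 0.0401 is among the weakest. The call of prl15 (edgeR adjusted p = 0.0396) is no firmer, at 0.358, 0.592 and 0.321 CPM against 0.974, 0.664 and 0.709 CPM.

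Both of those calls were lost in several alternatives. prl15 was not called without pla1-WT replicate 1 (0.76) or 3 (0.68), or without pla1-Y86D replicate 1 (0.68) or 3 (0.93). prl51 was not called without pla1-WT replicate 1 (0.42) or 2 (0.31), or without pla1-Y86D replicate 1 (0.27) or 3 (0.48). DESeq2 and the replicate block called neither, and limma-voom did not call prl51. prl21 lost its call without pla1-Y86D replicate 3 (0.40, edgeR adjusted p = 0.0897). The other 16 increases were called in each alternative run.

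The 3 decreases were small. prl1 (SPNCRNA.01) was at 11.8, 11.02 and 12.4 CPM in pla1-WT and 8.25, 9.13 and 8.08 CPM in pla1-Y86D (log2 fold change -0.47, SE 0.094, edgeR adjusted p = 2.99e-05). Its identifier is not in the reference, so its neighbours are not described. prl10 (SPNCRNA.1234) was at 54.5, 53.4 and 52.9 CPM against 42.5, 44.2 and 40.9 CPM (log2 fold change -0.33, SE 0.0428, edgeR adjusted p = 1.11e-08). At 2594 bases it is the longest member, and it runs across nmt1, the thiamine synthesis gene, on the other strand. The nmt1 mRNA went the other way, from 12, 16 and 26 counts in pla1-WT to 55, 99 and 61 in pla1-Y86D (log2 fold change 2.15, SE 0.299). In both of these members all mutant libraries lay below all control libraries.

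prl53 (SPNCRNA.53) dominated the group and hardly changed. Its level was 2323, 2348 and 2331 CPM in pla1-WT and 2209, 2156 and 2195 CPM in pla1-Y86D (log2 fold change -0.09, SE 0.0247, edgeR adjusted p = 0.000853). The strains did not overlap, but with scaling factors from protein-coding features alone the log2 fold change was -0.04 and the call was lost (edgeR adjusted p = 0.132). prl53 held 92.9% ± 0.0461 of the counts on prl features in the control strain, and 89.6% ± 0.166 in the mutant (SD, n = 3 each). Its transcript also holds an annotated coding feature on the same strand, SPAC27E2.11c, described as a Schizosaccharomyces specific protein, which had 0 to 6 counts per library. The longest reading frame of prl53 runs over 81 codons, shown above, and all 246 bases of it lie within SPAC27E2.11c. The counts of prl53 and of this feature can therefore not be kept apart by sequence alone. Among the 44 ncRNA members with a reference transcript the longest frame had a median of 30 codons, and 1, prl25 with 102 codons, reached 100. Among 1382 other ncRNAs, which are longer, the median was 47 codons and 5.07% reached 100.

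The group's share of all counts, most of it prl53, was lower in pla1-Y86D, while 19 of the 27 tested members were called higher. The 3 control libraries gave shares of 0.254%, 0.254% and 0.252%, and the 3 mutant libraries 0.244%, 0.237% and 0.245%. Its means were 0.253% ± 0.00149 and 0.242% ± 0.00408 (SD, n = 3; two-sided exact permutation p = 0.1, the smallest that 3 libraries against 3 allow). Leaving prl53 out, the control libraries averaged 0.0181% ± 0.000220 and the mutant ones 0.0252% ± 0.000250, with the same exact permutation p of 0.1. Of the counts on ncRNAs the prl RNAs held 17.4% ± 0.0787 and 13.7% ± 0.188, again without overlap of the strains. Most of this share is prl53, which alone went from 0.235% to 0.217% of all counts, and it was not taken without prl53. It therefore does not describe the other members, whose share of all counts was higher in the mutant. The ncRNAs as a whole went from 1.46% of all counts in pla1-WT to 1.75% in pla1-Y86D.

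Of the 27 tested members 25 have a reference length, and prl1 and prl59, which have none, are left out of this order. Per kilobase of reference transcript, prl53 was at 1260 ± 6.75 CPM per kb in pla1-WT, followed by prl58 at 76.4 ± 2.15, prl34 at 27.4 ± 0.369, prl42 at 21.4 ± 1.46, prl10 at 20.7 ± 0.313 and prl4 at 14.7 ± 1.75 CPM per kb. prl42 and prl10 do not differ beyond their spread, while the other neighbours in this order do. The 5 most abundant of these 25 members had log2 fold changes between -0.33 and 0.62. The 20 below them had a median of 0.95, and 17 of the 20 were called higher. By comparison, 40.1% of all features tested and 57.2% of the other ncRNAs were called higher. The 9 members that rose at least 2-fold were at 0.803 to 14.7 CPM per kb in pla1-WT. Level and fold change share the control libraries, so this is a description of these members only.

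The 5 tested members that were not called were prl59 (log2 fold change -0.01, SE 0.0766), prl42 (-0.04, SE 0.0976), prl13 (0.15, SE 0.23), prl33 (0.37, SE 0.351) and prl36 (-0.36, SE 0.185). prl59 and prl42 are measured closely, at 16.9 ± 1.5 against 16.7 ± 0.134 CPM and 9.59 ± 0.654 against 9.39 ± 0.796 CPM. prl33 and prl13 are too variable for a change of their size to be told from none. prl36 was at 2.76, 2.91 and 2.75 CPM in pla1-WT and 1.95, 1.83 and 2.69 CPM in pla1-Y86D (edgeR adjusted p = 0.07). Without pla1-Y86D replicate 3 it was called lower (-0.57, edgeR adjusted p = 0.0159).

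In 13 cases a tested member overlaps a tested protein-coding gene on the other strand, and antisense and sense RNA did not move by a common pattern. Of these 13 coding genes, 6 were higher and 4 lower, where 40.1% of all features tested were higher and 41.1% lower. In 9 of the 13 pairs both RNAs were called, 5 of them in the same direction and 4 in opposite directions. The same direction was seen for prl14 with ntr1, prl43 with drc1, prl47 with gup1, prl56 with SPACUNK4.13c and prl61 with SPAC186.07c. Opposite directions were seen for prl10 with nmt1, for prl15 (0.86) with SPBC27B12.05 (-0.59), for prl54 (0.96) with the checkpoint gene hus1 (-0.15) and for prl34 (0.46) with SPBC36.01c (-1.07). prl34 lies wholly within that gene, which encodes a spermidine family transporter and fell from 35.8 ± 0.731 to 17.0 ± 2.03 CPM while prl34 rose from 10.2 ± 0.138 to 14.1 ± 0.312 CPM. In the other pairs prl4, prl22 and prl42 had partners that were not called, and prl13 was not called while tif224 was at -0.34. Members that overlap a counted feature only on the other strand included 11 higher and 1 lower among 14 tested (median 0.91). Those with no counted overlap included 8 higher and 0 lower among 10 (median 0.73). The ncRNAs outside the group were called higher in 57.2% and lower in 19.3%, and the position classes were not tested against these shares.

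**Figure D4:**
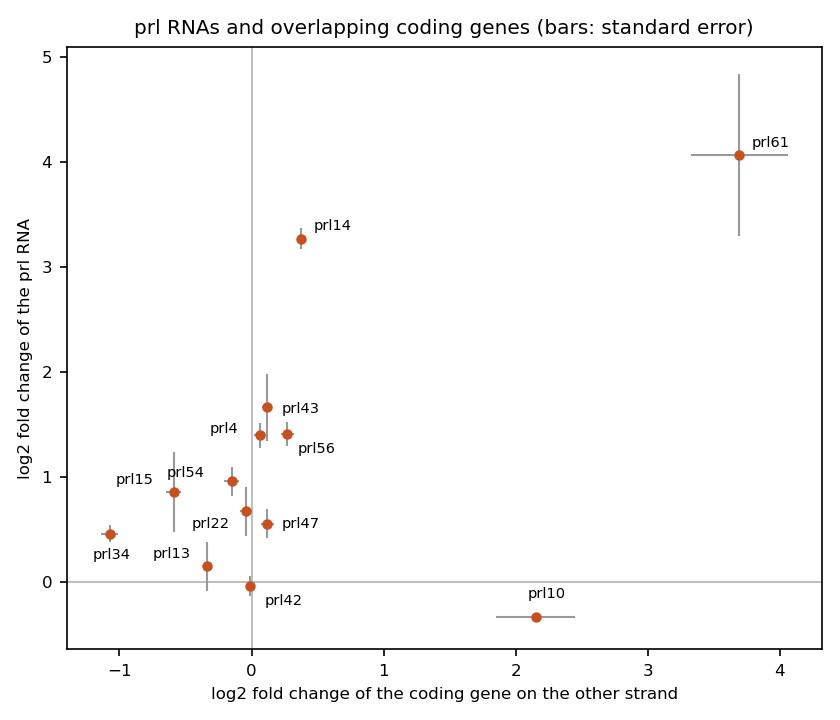
log2 fold change of each prl RNA (vertical axis) against that of the coding gene it overlaps on the other strand (horizontal axis) for 13 pairs, with standard errors as bars. prl61 and its gene are both far to the upper right, at 4.07 and 3.69, while prl10 lies below 0 with nmt1 at 2.15.

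The motif TNAAAC was found both in members that rose and in members that did not. It was searched on the transcript strand, overlapping matches included, and 28 of 44 ncRNA members (63.6%) held it, against 82.3% of 1382 other ncRNAs and 89.4% of 5106 protein-coding transcripts. The members are shorter, at a median of 426.5 bases against 1074.5 for the other ncRNAs, and per kilobase they held 1.78 copies against 2.0. Of the tested ncRNA members with a match 12 of 16 were called higher, and of those without one 6 of 8. The share called higher was 40.1% over all features tested and 57.2% over the other ncRNAs. The clearest increase, prl14, had none, and prl61 and prl66 had 1 each, in capitals above. A match is a string of letters and not a site, and its absence says nothing of any protein.

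Of 9 other noncoding RNAs with known roles, 7 were higher, 5 of them at least 2-fold, and 1 was lower. Among ncRNAs outside the prl group 57.2% were called higher and 26.1% at least 2-fold higher, and no test of the list was made. Among these, sme2, the meiotic RNA that holds Mmi1 in check, had a log2 fold change of 1.83, srp7, the RNA of the signal recognition particle, 1.23, and mrp1, the RNA of RNase MRP, 1.07. The decrease was rrk1, the RNA of RNase P, at -0.49. For these RNAs too, amount and tailing cannot be told apart in poly(A)+ libraries. Of 29 genes for factors that tail, terminate or decay such RNAs, 5 were higher and 16 lower, none rose 2-fold, and the median log2 fold change was -0.09, where 40.1% of all features were called higher and 41.1% lower. No test of the list was made. The largest decreases were cti1, an exosome-associated C1D family gene, at -1.17 and cbc1, of the nuclear cap-binding complex, at -0.79. mtr4, air1 and cid14 of the TRAMP complex were at -0.42, -0.57 and -0.08. The termination gene rhn1 was at -0.66, the RNA-binding protein gene seb1 at -0.34 and mmi1 at -0.24. The exosome genes rrp46 (-0.68), rrp41 (-0.46), rrp40 (-0.41), rrp43 (-0.25), rrp42 (-0.19) and dis3 (-0.15) were lower. Not called were pab2, erh1, dhp1 and the exosome genes rrp6, rrp4, rrp45 and mtr3. In MTREC, rmn1 (-0.42) and iss10 (-0.09) were lower and mtl1 was not called. The increases were red5 (0.58) and red1 (0.29) of MTREC, the cleavage factor gene pcf11 (0.38), the cap-binding gene cbc2 (0.20) and pla1 itself (0.37).

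By the authors' deposited table, 22 members passed an adjusted p of 0.05, of which 20 were also called here and 2, prl5 and prl16, were called only without the filter on low counts. Called here but not there were prl15 and prl51.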

How the data were processed

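The authors deposited whole-number read counts per annotated feature for 6 libraries, without normalization. The submitters' processing notes name build ASM294v2 and, as tools, HTSeq 0.10.0, HISAT2 2.1.0, SAMtools, DESeq and DESeq2. For the strand setting, annotation release and multiply aligned reads, nothing is given in the sources used here. Per the file headers, a second deposited table holds the authors' DESeq2 comparison, with signal columns of mean normalized counts, log2 fold changes with standard errors, a Wald statistic (a score) and p-values. From it names, descriptions, fold changes and adjusted p were used.

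The test was that of edgeR 4.0.16 (R 4.3.3), with filterByExpr, TMM scaling, a robust quasi-likelihood fit with strain as the only term, and Benjamini-Hochberg adjustment over 6267 features. Standard errors are the fold change over the root of its F statistic. The fit was tested on simulated data in which far fewer features changed than were called here. Overlaps, lengths and sequences come from RefSeq ASM294v3, in which 6836 of 6988 identifiers matched (97.8%). That build is not the one of the counts. Features that overlap on one strand, and antisense features, have uncertain counts. Totals per library bound the precision, and low members carry large counting error.

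Alternatives were other scalings, filters and tests, a replicate block and leaving out each library, with DESeq2 1.42.0 and limma 3.58.1. The rule for named genes took members that changed at least 2-fold, the 6 highest per kilobase, those under 10 control counts, those not called, and overlapping or nearest features of the first. Other names were chosen after their values were seen. Members and lists were chosen with earlier results of these data known. The list entries prt, ars2, csl3 and mat1-Pc were not matched.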

Additional observations from a re-analysis of the deposited data

How the results depend on the processing

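The count of all features called stayed between 4781 and 5162 over the 14 alternatives, that of members called higher between 16 and 22, that of members called lower between 2 and 4, and that of members at least 2-fold higher between 9 and 12. The 22 came without a filter on low counts, where prl5, prl12 and prl16 were also called. The median log2 fold change of all features stayed between -0.006 and 0.050 over the scalings and tests. No called member changed direction. With the replicate number as a block 17 members were higher and 3 lower, with prl15 (edgeR adjusted p = 0.0591) and prl51 (0.0511) the calls lost. Deviations of same-numbered libraries correlated at -0.0694, -0.0287 and -0.0587 over 6267 features, so the numbers do not pair the libraries. The difference in the group's share of counts, -0.0112 percentage points, was 0.00710 without prl53 and thus reversed. As a share of ncRNA counts, with prl53 included, the difference was -3.61. With 1 library left out the difference in the share of all counts ranged from -0.0125 to -0.00883, and the cause was not tested. Depth limits the members under 10 control counts.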
